A study of Mus musculus with 12 samples.

Results

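The 40 genes described here encode the enzymes of glycolysis, the pyruvate dehydrogenase complex and the citric acid cycle, with the malate dehydrogenases and malic enzymes beside it. They were taken by name from a table of read counts for 46882 gene names. All 40 were among the 16910 genes with enough counts to be tested. By role, 19 belong to glycolysis and lactate formation, 6 to pyruvate dehydrogenase and its kinases, and 15 to the citric acid cycle and malate handling. The RNA came from the flash-frozen whole kidney of mice of the C57BL/6 strain, 6 to 8 weeks of age. One group was wild type (WT, 6 animals: 573, 590, 601, 776, 777 and 778). The other was A1cf -/- (A1cf KO, 6 animals: 574, 584, 588, 591, 602 and 780). The labels give no treatment, sex or way of making the deletion. A1cf encodes an RNA-binding cofactor of apolipoprotein B mRNA editing that is made in liver, intestine and kidney.

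Glycolysis breaks glucose down to pyruvate in the cytosol, and pyruvate is either reduced to lactate or passed into mitochondria. There the pyruvate dehydrogenase complex turns it into acetyl-CoA, unless its kinases switch the complex off, and the citric acid cycle oxidises the acetyl group. In the kidney the proximal tubule relies mainly on oxidation and can make glucose, while the thick ascending limb and the collecting duct also use glycolysis, and the 2 kinds of segment carry partly different isoenzymes.

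A1cf itself checks the labels. Its level was 54.5 ± 7.39 CPM (counts brought to a common library size with TMM factors) in WT against 4.11 ± 1.07 CPM in A1cf KO (mean ± SD, n = 6 each), and every A1cf KO library lay below every WT library. The log2 fold change of A1cf was -3.72 (edgeR quasi-likelihood adjusted p = 6.0e-09). Total counts per library ran from 26671705 to 52899139. The 40 genes together took 1.38% to 1.53% of these unscaled counts in WT and 1.30% to 1.42% in A1cf KO. Mitochondrially encoded genes took 10.2 ± 0.99% of counts in WT and 11.7 ± 0.58% in A1cf KO (SD, n = 6 each, exact two-sided permutation p = 0.017, 0.032 adjusted over 3 library measures). The 10 most abundant genes took 16.8 ± 0.96% in WT and 18.3 ± 0.92% in A1cf KO (exact two-sided permutation p = 0.022, adjusted 0.032). The animal numbers form a lower series (573 to 602, with 3 WT and 5 A1cf KO) and a higher one (776 to 780, with 3 WT and 1 A1cf KO), and the labels do not say whether these were handled as batches.

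Transcript levels of these enzymes differed little between the genotypes: the A1cf KO mean lay between 69.0% (Aldoc) and 146% (Hk2) of the WT mean. None of the 40 genes passed the adjusted p threshold of 0.05 in the edgeR test, which 8 of 16910 genes (0.0473%) passed. The DESeq2 test passed 1 of the 40, the malic enzyme gene Me3, against 1.14% of the genes it tested. Without adjustment, 10 of the 40 (25%) had p under 0.05 by edgeR, 9 of them lower and 1 higher in A1cf KO, where 10.4% of all genes tested had such a p, 5.28% lower and 5.07% higher. Among genes with a mean of at least 10 CPM, a level that 38 of the 40 reached in WT, the share was 11.9%, with 6.04% lower. Within animals 573 to 602, 4 of the 40 had such a p, all lower in A1cf KO: Me3, Eno1, Tpi1 and Pfkm. The share of all genes with such a p in that smaller fit is not given, so these 4 have no background beside them. The fold change was negative for 26 of the 40 (65%) and for 50.8% of all genes, and its median was -0.06 on the log2 scale over the 40 and -0.003 over all genes. The SE of the log2 fold change ran from 0.055 to 0.51 with a median of 0.07. For 35 of the 40 the interval of 1.96 SE on either side of the estimate stayed within 0.5 of 0 on the log2 scale.

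**Figure D1:**
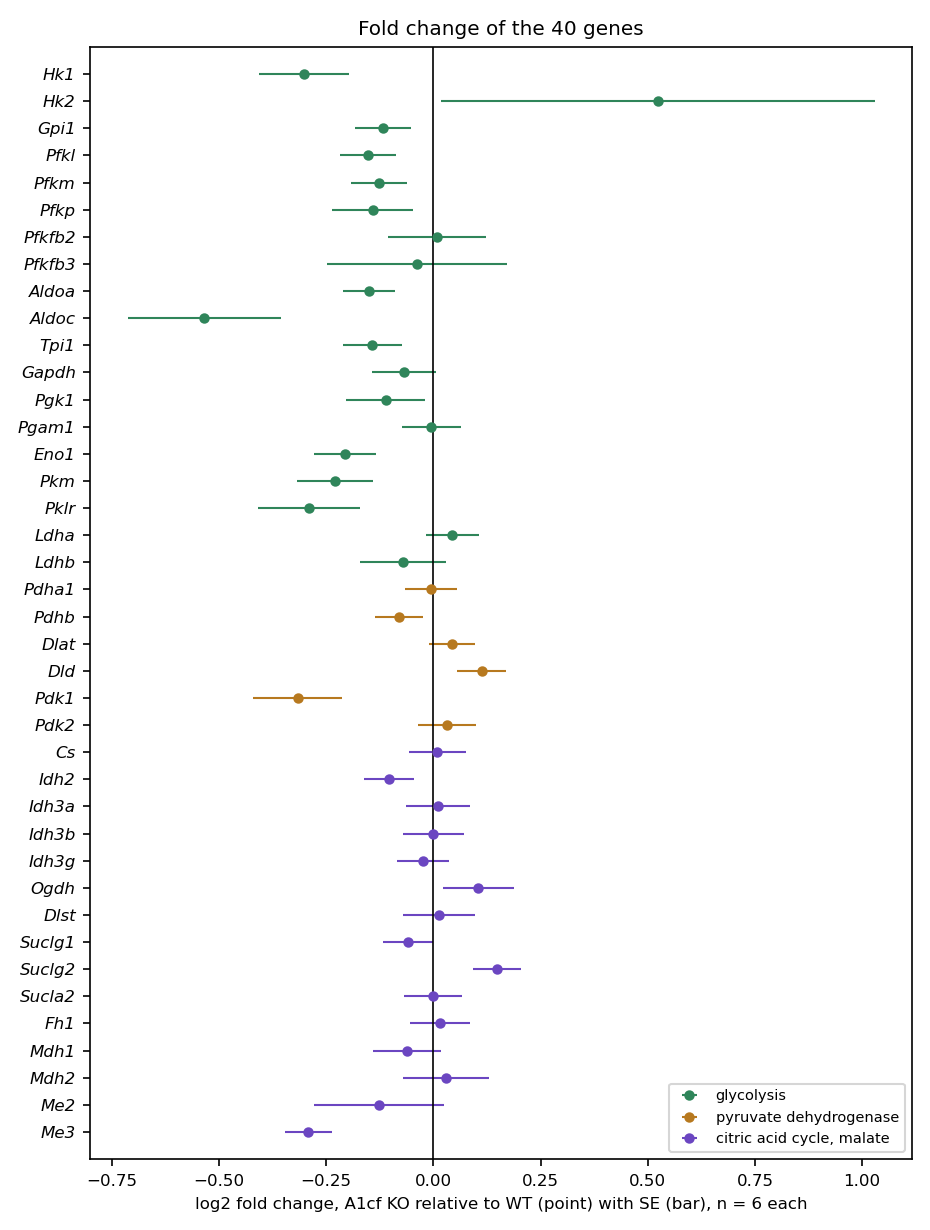
Log2 fold change of each of the 40 genes in A1cf KO relative to WT (x axis) with its SE as a bar (n = 6 each), coloured by role. Most glycolysis genes lie to the left of 0, while citric acid cycle genes lie on both sides, and Hk2 has the widest bar (SE 0.51).

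The negative fold changes were found mostly among the glycolysis genes. Of these 19 genes, 16 (84.2%) had a negative fold change, 7 (36.8%) had an unadjusted p under 0.05 and all 7 were lower in A1cf KO. Their median log2 fold change was -0.13. Of the 6 pyruvate dehydrogenase genes 3 were negative, with a median of 0.013, and of the 15 citric acid cycle and malate genes 7 were negative, with a median of 0.0004. With only animals 573 to 602 the median of the glycolysis genes was -0.16, and that of the citric acid cycle and malate genes was -0.073 with 12 of 15 negative. The number of negative genes among these 15 was also 12 with the series as a covariate and 6 with DESeq2 size factors, and with 1 library left out it ran from 5 (without WT 601) to 13 (without A1cf KO 602), with 11 without WT 778.

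Glucose enters the pathway through hexokinase, and Hk1, the form made in most tissues, took 98.8 ± 0.821% in WT and 97.8 ± 1.27% in A1cf KO of the summed Hk1 and Hk2 level per kilobase of exon (SD, n = 6 each). Its lowest, median and highest levels were 97.6, 110.3 and 135 CPM in WT against 74.3, 85.6 and 117 CPM in A1cf KO. The means were 111 ± 12.9 CPM in WT against 90.4 ± 15.3 CPM in A1cf KO (edgeR log2 fold change -0.30, SE 0.10, adjusted p = 0.35). The groups overlapped, since A1cf KO 602 exceeded 5 of the 6 WT libraries, while 4 A1cf KO libraries lay below all WT libraries. The log2 fold change of Hk1 was -0.18 within animals 573 to 602. Hk2, the insulin-responsive hexokinase of muscle and fat, was near the limit of measurement, with 0.427, 0.764 and 2.70 CPM in WT against 0.501, 1.05 and 3.21 CPM in A1cf KO. WT 777, A1cf KO 602 and A1cf KO 780 held the high values, and the difference did not pass the test (edgeR log2 fold change 0.52, SE 0.51, adjusted p = 0.76). Without A1cf KO 602 its log2 fold change was 0.14, without WT 777 it was 1.14, and within animals 573 to 602, which leave out WT 777 and A1cf KO 780, it was 1.17. Gpi1, which isomerises glucose 6-phosphate, measured 422 ± 37.3 CPM in WT against 389 ± 20.5 CPM in A1cf KO (edgeR log2 fold change -0.12, adjusted p = 0.55), and 11.5% of its exon bases also belong to Gm26762 on the opposite strand.

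Phosphofructokinase carries out the committed step of glycolysis, and its 3 subunit genes were all slightly lower in A1cf KO by their fitted fold changes, with none past the adjusted threshold. Pfkl, the liver-type subunit, had lowest, median and highest levels of 62.8, 73.9 and 76.3 CPM in WT against 58.9, 63.3 and 72.1 CPM in A1cf KO (edgeR log2 fold change -0.15, SE 0.065, adjusted p = 0.44). Its unadjusted p exceeded 0.05 in 7 of 12 fits that left out 1 library, and also within animals 573 to 602. Pfkm, the muscle-type subunit, had 61.2, 67.5 and 74.6 CPM in WT against 54.3, 64.1 and 67.2 CPM in A1cf KO (edgeR log2 fold change -0.13, SE 0.065, adjusted p = 0.52), and every A1cf KO library lay below the WT mean. Pfkp, the platelet-type subunit, had 40.6, 46.8 and 55.8 CPM in WT against 35.1, 42.5 and 48.1 CPM in A1cf KO (edgeR log2 fold change -0.14, adjusted p = 0.63). The log2 fold change of Pfkp was -0.084 without WT 777, -0.044 with the series as a covariate and -0.02 within animals 573 to 602. All 3 sets of values overlapped between genotypes. Per kilobase, Pfkm took 52.1 ± 2.94% in WT and 52.5 ± 2.77% in A1cf KO of the summed level, Pfkl 36.6 ± 1.76% in WT and 36.3 ± 1.62% in A1cf KO, and Pfkp 11.3 ± 1.55% in WT and 11.2 ± 1.41% in A1cf KO. Each share thus differed between genotypes by less than its SD. The order of the 3 genes depends on the annotated exon length, 2957 bases for Pfkm, 4395 for Pfkl and 9395 for Pfkp. In CPM, the WT means were 68.4 for Pfkm, 71.6 for Pfkl and 47.0 for Pfkp.

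Pfkfb2 and Pfkfb3 encode bifunctional enzymes that set the level of an activator of phosphofructokinase. Pfkfb2 measured 12.6 ± 1.77 CPM in WT against 12.6 ± 1.87 CPM in A1cf KO (fitted log2 fold change 0.0079). Its level is uncertain, since 19.5% of its exon bases also belong to Gm29427 on the same strand or Yod1 on the opposite strand. Pfkfb3 measured 31.4 ± 9.39 CPM in WT against 30.6 ± 9.74 CPM in A1cf KO (fitted log2 fold change -0.039, SE 0.21), with its highest values in WT 777, A1cf KO 602 and A1cf KO 780, the same libraries as for Hk2. Its log2 fold change was 0.12 with a covariate for the number series and 0.096 within animals 573 to 602, so no direction is given for it.

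Aldolase splits the phosphorylated hexose into trioses. Aldoa, the widespread form, had lowest, median and highest levels of 763, 819.7 and 849 CPM in WT against 681, 710.1 and 815 CPM in A1cf KO (edgeR log2 fold change -0.15, SE 0.062, adjusted p = 0.42). The groups overlapped, with 4 of 6 A1cf KO libraries below every WT library and A1cf KO 584 at the highest A1cf KO value. In 6 of 12 fits that left out 1 library its unadjusted p exceeded 0.05. Aldoc, the form known from brain, had 11.9, 14.2 and 24.2 CPM in WT against 7.72, 10.4 and 14.2 CPM in A1cf KO, the lowest fold change of the 40 genes (edgeR log2 fold change -0.53, SE 0.18, adjusted p = 0.34). WT 777 stood apart at 24.2 CPM, and the other 5 WT libraries reached at most 14.6 CPM. Without WT 777 the log2 fold change of Aldoc was -0.35, and within animals 573 to 602 it was -0.24.

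None of the genes for the steps from the trioses to phosphoglycerate had an unadjusted p under 0.05 with all 12 libraries. Tpi1, which interconverts the trioses, was the nearest and measured 693 ± 65.3 CPM in WT against 628 ± 33.3 CPM in A1cf KO (edgeR log2 fold change -0.14, SE 0.069, adjusted p = 0.49), and all 6 A1cf KO libraries lay below the WT mean. Gapdh, which oxidises glyceraldehyde 3-phosphate, measured 1678 ± 161 CPM in WT against 1600.0 ± 97.8 CPM in A1cf KO (edgeR log2 fold change -0.069, adjusted p = 0.79). Pgk1, the first ATP-yielding step, measured 293 ± 40.5 CPM in WT against 271 ± 27.9 CPM in A1cf KO (edgeR log2 fold change -0.11, adjusted p = 0.71). Pgam1, the mutase after it, measured 82.7 ± 6.01 CPM in WT against 82.4 ± 8.37 CPM in A1cf KO (fitted log2 fold change -0.0042), with A1cf KO 602 at the top. For Gapdh, Pgk1 and Pgam1 the difference between means was below the SD of the WT libraries, and for Tpi1 it was about as large. The log2 fold changes within animals 573 to 602 were -0.23 for Tpi1, -0.13 for Gapdh and -0.23 for Pgk1.

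Eno1, the enolase of most tissues that makes phosphoenolpyruvate, was among the more abundant of the 40. It lies at chr4:150236721-150248879 (mm10, plus strand). Its lowest, median and highest levels were 742, 842 and 951 CPM in WT against 675, 721 and 788 CPM in A1cf KO, with means of 838 ± 75.7 CPM in WT against 727 ± 51.6 CPM in A1cf KO (edgeR log2 fold change -0.21, SE 0.072, adjusted p = 0.35). All 6 A1cf KO libraries lay below the WT mean and 3 lay below every WT library, while the ranges overlapped. Within animals 573 to 602 the log2 fold change of Eno1 was -0.18. The bases before its RefSeq start (GRCm38.p6, the assembly of mm10, chr4:150236458-150236707, plus strand) are shown. Stretches were printed for genes with an unadjusted p under 0.05 whose bases before the annotated gene held a motif match. The Eno1 stretch holds both motifs searched in the promoters of the 40 genes. Capitals mark the matches, and the sequence runs 5′ to 3′ toward the start.
Eno1 promoter: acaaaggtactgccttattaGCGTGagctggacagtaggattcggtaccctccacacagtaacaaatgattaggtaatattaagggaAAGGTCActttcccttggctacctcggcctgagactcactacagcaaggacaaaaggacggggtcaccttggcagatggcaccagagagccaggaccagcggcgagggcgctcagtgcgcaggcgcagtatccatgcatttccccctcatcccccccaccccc
The motifs were the core of the hypoxia response element, ACGTG or GCGTG, and the nuclear receptor half-site AAGGTCA, each read on both strands over 250 bases before the start. RefSeq promoters were matched for 38 of the 40 genes. The hypoxia core was found in 24 of these (63.2%), in 13 of the 19 glycolysis promoters (68.4%) and in 38.6% of all 32851 promoters in the same table. The half-site was found in 1 of the 38 (2.63%), that of Eno1, and in 4.08% of all. Promoters of the members had a mean GC content of 58.5%, against 53.2% for all promoters. Of the 10 genes with an unadjusted p under 0.05, 4 had the hypoxia core. A match describes the letters only.

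Pyruvate kinase makes pyruvate, and its 2 genes were both lower in A1cf KO by the fitted values. Pkm, the form outside liver and red cells, had lowest, median and highest levels of 193, 219.5 and 249 CPM in WT against 166, 179.8 and 236 CPM in A1cf KO (edgeR log2 fold change -0.23, SE 0.088, adjusted p = 0.39). The groups overlapped, with 4 of 6 A1cf KO libraries below every WT library and A1cf KO 602 above 5 WT libraries. Pklr, the liver and red cell form that the proximal tubule also makes, had 38.0, 40.2 and 61.2 CPM in WT against 30.7, 33.3 and 42.8 CPM in A1cf KO (edgeR log2 fold change -0.29, SE 0.12, adjusted p = 0.42). WT 776 held the WT maximum, and without it the log2 fold change was -0.17. In 4 of 12 such fits, each without 1 library, the unadjusted p of Pklr exceeded 0.05. Of the exon bases of Pklr, 22% also belong to Hcn3 on the opposite strand. Reads there were not separated by strand, which leaves the Pklr level uncertain. Per kilobase, Pkm took 86.4 ± 2.28% in WT and 86.7 ± 2.52% in A1cf KO of the pair, a difference smaller than the SD.

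Lactate dehydrogenase, which reduces pyruvate to lactate and back, had the highest level per kilobase of exon among the 40 genes. This was the level of Ldhb, the heart-type subunit, at 803 CPM per kilobase in WT, above Mdh1 (538) and Gapdh (406). The order depends on the annotated exon length, 1570 bases for Ldhb and 4133 for Gapdh. In CPM, the WT means of Gapdh (1678) and Mdh1 (1380) exceeded that of Ldhb (1261). The lowest, median and highest levels of Ldhb were 1023, 1220.4 and 1552 CPM in WT against 1007, 1212 and 1352 CPM in A1cf KO (edgeR log2 fold change -0.07, adjusted p = 0.85). Without WT 590 the log2 fold change of Ldhb was -0.0011, and within animals 573 to 602 it was -0.17. Ldha, the muscle-type subunit, had 648, 685 and 768 CPM in WT against 684, 722 and 769 CPM in A1cf KO (edgeR log2 fold change 0.045, adjusted p = 0.84), and was 1 of only 3 glycolysis genes with a positive fold change, beside Hk2 and Pfkfb2. Within animals 573 to 602 the log2 fold change of Ldha was -0.016. Ldhb took 77.2 ± 1.58% in WT and 75.8 ± 1.70% in A1cf KO of the pair, and the ranges of the share overlapped.

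**Figure D2:**
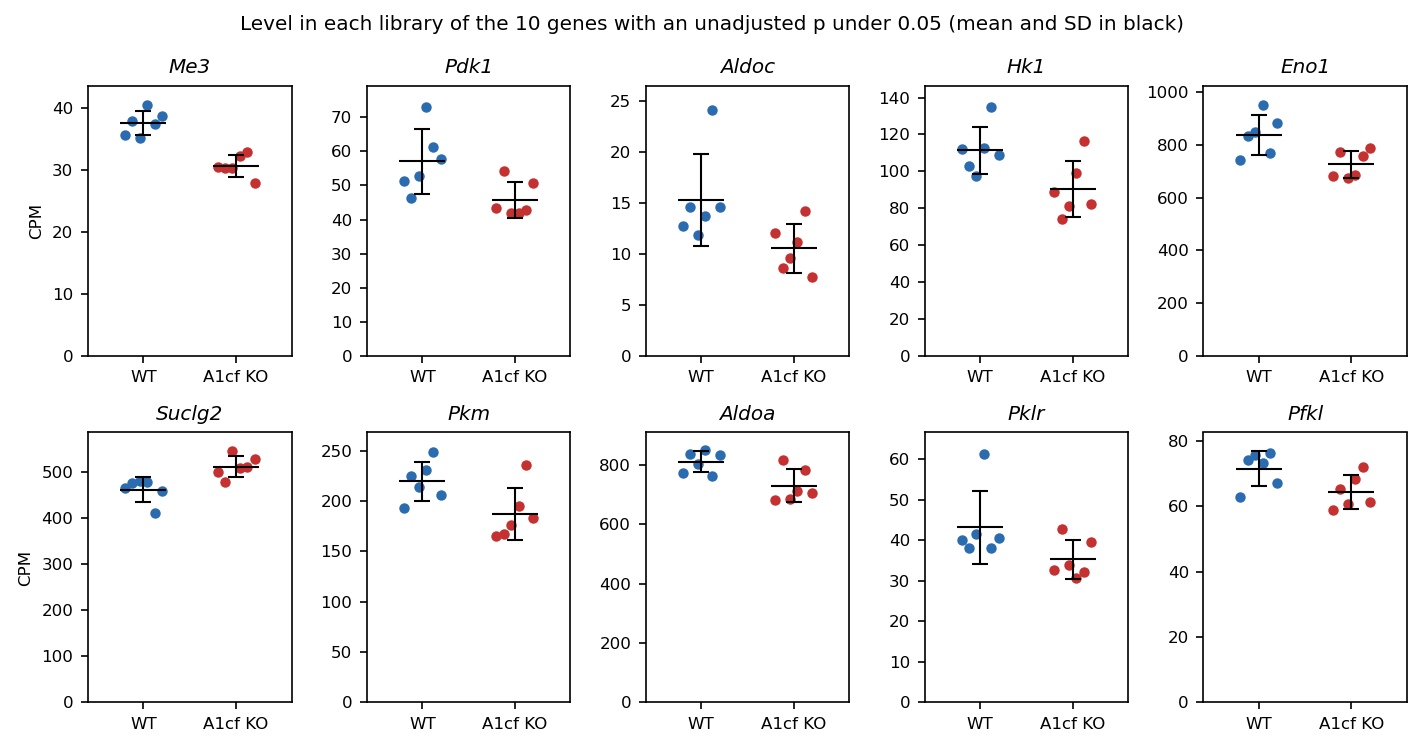
CPM (y axis, from 0) in each library for the 10 genes with an unadjusted p under 0.05, WT in blue and A1cf KO in red (n = 6 each), with mean and SD in black. The genotypes separate fully for Me3 (35.1 to 40.4 against 27.8 to 32.9 CPM) and overlap for the other 9 genes.

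The pyruvate dehydrogenase complex itself showed no common direction. Pdha1 and Pdhb, the subunits of its decarboxylase, measured 389 ± 16.6 and 146 ± 8.77 CPM in WT, with log2 fold changes of -0.0055 and -0.08. That of Pdhb was -0.13 within animals 573 to 602. Dlat, the acetyltransferase core, measured 113 ± 5.58 CPM in WT against 117 ± 7.60 CPM in A1cf KO (edgeR log2 fold change 0.043, adjusted p = 0.82). Dld, the lipoamide dehydrogenase that this complex shares with the oxoglutarate complex, had lowest, median and highest levels of 267, 290.5 and 315 CPM in WT against 292, 309 and 337 CPM in A1cf KO (edgeR log2 fold change 0.11, SE 0.057, adjusted p = 0.52). All 6 A1cf KO libraries exceeded the WT mean for Dld, the ranges overlapped, and within animals 573 to 602 the log2 fold change was 0.029. Exons of Pdha1 share 16.1% of their bases with Map3k15 on the other strand, so its level is less certain.

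Of the kinases that inactivate the complex, Pdk1 had an A1cf KO mean at 80.3% of the WT mean and Pdk2 at 102%, and the difference between the 2 genes was not tested. The promoter of Pdk1 (GRCm38.p6, chr2:71872974-71873223, plus strand) is shown by the same rule as that of Eno1. That rule required a motif match, so the presence of a match here was set by the choice. The single match to the hypoxia core is in capitals.
Pdk1 promoter: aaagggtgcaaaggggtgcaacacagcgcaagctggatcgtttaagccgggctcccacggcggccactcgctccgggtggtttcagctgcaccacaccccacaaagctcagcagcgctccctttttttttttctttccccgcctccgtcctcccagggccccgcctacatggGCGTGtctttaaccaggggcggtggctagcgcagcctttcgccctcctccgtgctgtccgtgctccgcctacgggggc
The gene lies at chr2:71873224-71903858 (plus strand). The lowest, median and highest levels of Pdk1 were 46.2, 55.2 and 73.1 CPM in WT against 41.9, 43.0 and 54.1 CPM in A1cf KO. The means were 57.1 ± 9.44 CPM in WT against 45.8 ± 5.30 CPM in A1cf KO (edgeR log2 fold change -0.32, SE 0.10, adjusted p = 0.33). All 6 A1cf KO libraries lay below the WT mean, and the ranges overlapped because A1cf KO 584 and 780 exceeded the lowest WT library. WT libraries of the higher number series averaged 64.1 CPM and those of the lower series 50.1 CPM. Within animals 573 to 602 the log2 fold change was -0.16. Pdk2, the kinase with the higher level per kilobase, had 255, 292 and 335 CPM in WT against 281, 298 and 319 CPM in A1cf KO (edgeR log2 fold change 0.032, adjusted p = 0.9). Pdk2 took 92.6 ± 1.39% in WT and 94.1 ± 0.722% in A1cf KO of the pair.

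The first steps of the citric acid cycle were nearly level between genotypes. Cs, citrate synthase, measured 244 ± 17.8 CPM in WT against 246 ± 21.4 CPM in A1cf KO (fitted log2 fold change 0.0096). Idh2, the NADP-dependent mitochondrial isocitrate dehydrogenase, measured 458 ± 28.0 CPM in WT against 426 ± 24.8 CPM in A1cf KO (edgeR log2 fold change -0.10, adjusted p = 0.56), and all 6 A1cf KO libraries lay below the WT mean. Idh3a, the catalytic subunit of the NAD-dependent enzyme, had lowest, median and highest levels of 100.1, 110.1 and 121 CPM in WT against 97.1, 109 and 136 CPM in A1cf KO. Idh3b, one of its regulatory partners, had 257, 286 and 332 CPM in WT against 258, 293 and 314 CPM in A1cf KO. Idh3g, the other, had 240.4, 276 and 305 CPM in WT against 255, 271 and 288 CPM in A1cf KO. The log2 fold changes of the 3 subunit genes were 0.011, 0.0004 and -0.024, each smaller than its SE. Per kilobase, Idh3g took 43.7 ± 1.29% in WT and 43.3 ± 0.968% in A1cf KO of the 3, Idh3b 36.5 ± 0.977% in WT and 36.7 ± 0.905% in A1cf KO with the rest from Idh3a.

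Ogdh and Dlst, the first and core enzymes of the oxoglutarate dehydrogenase complex, measured 573 ± 59.8 and 449 ± 49.9 CPM in WT, with log2 fold changes of 0.10 and 0.013. That of Ogdh was 0.011 within animals 573 to 602, and with 1 library left out it ran from 0.061 to 0.16. Fh1, fumarate hydratase, measured 185 ± 14.8 CPM in WT against 187 ± 16.7 CPM in A1cf KO (fitted log2 fold change 0.016).

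Suclg2, the subunit that makes succinyl-CoA ligase specific for GDP, was the 1 member with an unadjusted p under 0.05 and a higher level in A1cf KO. It lies at chr6:95473009-95718800 (minus strand). Its lowest, median and highest levels were 411, 471 and 481 CPM in WT against 477, 510.0 and 546 CPM in A1cf KO, and the means were 462 ± 26.5 CPM in WT against 512 ± 23.4 CPM in A1cf KO (edgeR log2 fold change 0.15, SE 0.056, adjusted p = 0.38). All 6 A1cf KO libraries exceeded the WT mean and 5 exceeded every WT library. WT 777 was the lowest at 411 CPM. Without it the log2 fold change was 0.12, and within animals 573 to 602 it was 0.099. Sucla2, the ADP-specific alternative, had 175, 188 and 217 CPM in WT against 168, 192 and 207 CPM in A1cf KO, with a log2 fold change of -0.001. Suclg1, the subunit that both forms share, measured 428 ± 26.9 CPM in WT against 411 ± 22.9 CPM in A1cf KO (edgeR log2 fold change -0.06, adjusted p = 0.76). The Suclg2 share of the specificity subunits was 67.6 ± 1.85% in WT and 69.8 ± 0.827% in A1cf KO.

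Malate is handled by 2 dehydrogenases and the malic enzymes. Mdh1, the cytosolic dehydrogenase, had lowest, median and highest levels of 1241, 1402 and 1559.6 CPM in WT against 1103, 1349.8 and 1469 CPM in A1cf KO (edgeR log2 fold change -0.061, adjusted p = 0.83). Mdh2, the mitochondrial form that closes the cycle, had 352, 399.7 and 493 CPM in WT against 357, 409 and 509.9 CPM in A1cf KO (edgeR log2 fold change 0.029, adjusted p = 0.94). The log2 fold change of Mdh1 was -0.14 within animals 573 to 602 and ran from -0.093 to -0.014 with 1 library left out. Both overlapped widely between genotypes, and Mdh1 took 82.4 ± 1.16% in WT and 81.5 ± 1.46% in A1cf KO of the pair per kilobase.

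Me3, the NADP-dependent malic enzyme of mitochondria that turns malate into pyruvate, stood apart from the other 39 genes by its p. It lies at chr7:89632392-89854359 (mm10, plus strand). Its values in WT animals 573, 590, 601, 776, 777 and 778 were 35.7, 37.9, 35.1, 40.4, 37.3 and 38.7 CPM, and those in A1cf KO animals 574, 584, 588, 591, 602 and 780 were 30.4, 30.3, 30.2, 32.2, 32.9 and 27.8 CPM. The groups did not overlap, which was also so for 0.84% of all genes tested. The means were 37.5 ± 1.95 CPM in WT against 30.6 ± 1.76 CPM in A1cf KO, so that the A1cf KO mean was 81.7% of the WT mean (edgeR log2 fold change -0.29, SE 0.055, adjusted p = 0.11). By p it ranked 15 among 16910 genes. The DESeq2 Wald test gave an adjusted p of 5.2e-04, limma-voom 0.11 and edgeR with the series as a covariate 0.087. Over the 12 fits that each left out 1 library, the log2 fold change stayed between -0.31 and -0.27 and the unadjusted p stayed under 0.05. Within animals 573 to 602 it was -0.22 (edgeR adjusted p = 0.53). Its exons share 3.89% of their bases with A230065N10Rik on the other strand. Me2, the NAD-dependent malic enzyme, had 3.65, 4.997 and 7.30 CPM in WT against 4.13, 4.72 and 5.26 CPM in A1cf KO (edgeR log2 fold change -0.13, adjusted p = 0.81). Per kilobase, Me3 took 55.5 ± 5.82% in WT and 52.2 ± 3.24% in A1cf KO of the 2. This share depends on the annotated exon length, 14624 bases for Me3 and 2455 for Me2. In CPM, the WT means were 37.5 for Me3 and 5.14 for Me2.

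**Figure D3:**
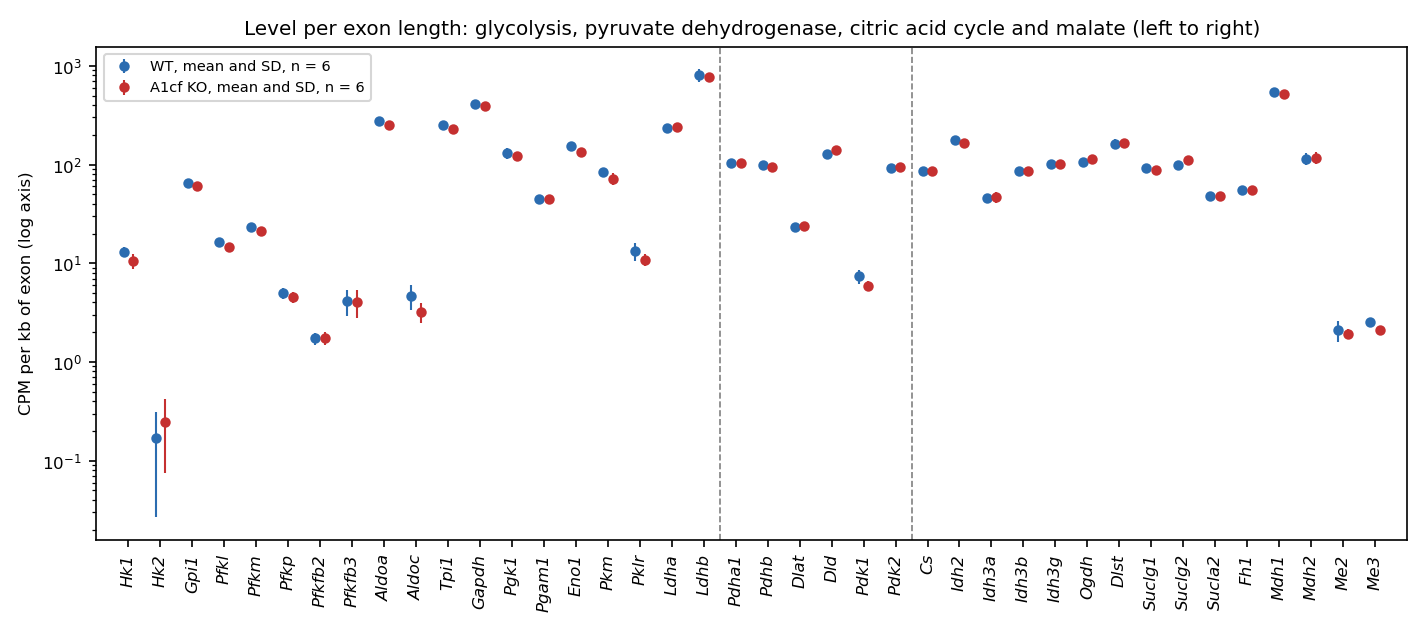
Level per kilobase of exon (CPM per kb, log axis) of the 40 genes in WT (blue) and A1cf KO (red), mean and SD with n = 6 each, from glycolysis on the left to malate on the right. Levels run from 0.17 for Hk2 to 803 for Ldhb in WT, and the genotype means of nearly every gene lie close together.

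The pathway has further enzymes outside the 40, of which 49 were looked up and 43 were tested. None passed the adjusted threshold, 20 had a negative and 23 a positive fold change, the median was 0.0059, and 1 (2.33%) had an unadjusted p under 0.05. That gene was Sdhd, a membrane anchor of succinate dehydrogenase, at 321 ± 28.1 CPM in WT against 276 ± 28.2 CPM in A1cf KO (edgeR log2 fold change -0.22, SE 0.078, adjusted p = 0.37). The next by p were Pdpr, a regulator of the pyruvate dehydrogenase phosphatase (fitted log2 fold change 0.19), and the cytosolic malic enzyme Me1 (0.15). The cytosolic Me1 and the mitochondrial Me3 thus had fold changes of opposite sign, and the difference between the 2 fold changes was not tested.

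Libraries differed in these genes also within a genotype. WT 777 was the highest WT library for 8 members (Hk1, Hk2, Pfkl, Pfkp, Pfkfb3, Aldoc, Pkm and Me2) and the lowest for 13. A1cf KO 584 was the lowest A1cf KO library for 23 of the 40, and A1cf KO 602 the highest for 21. Among WT libraries, 590 was the highest for 13 members and 601 for 11. The median deviation of the 40 genes from the WT mean was -0.16 on the log2 scale in A1cf KO 584 and 0.063 in A1cf KO 602, and in WT it ran from -0.074 (777) to 0.091 (601). Without A1cf KO 584 the median log2 fold change of the 40 was -0.020.

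**Figure D4:**
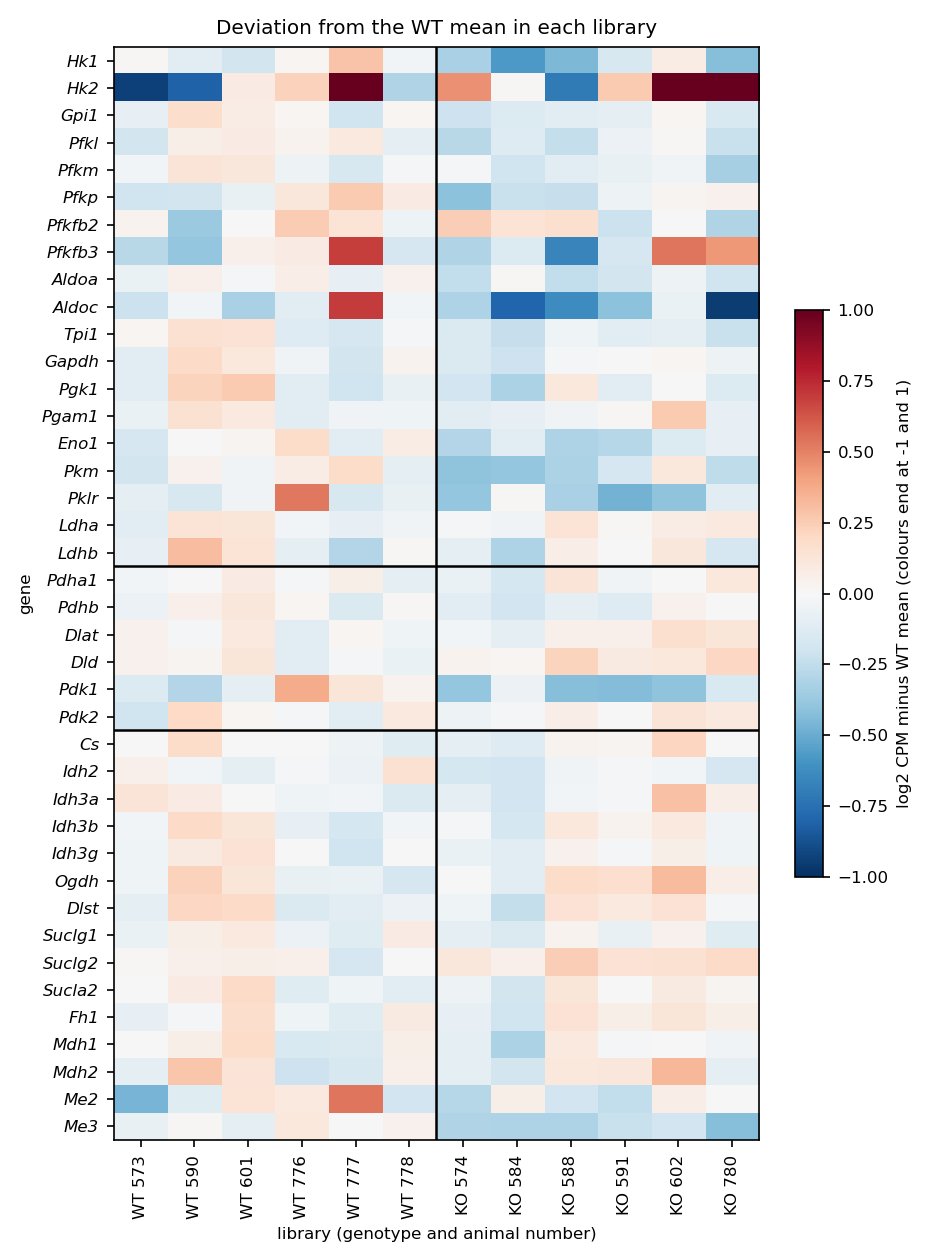
Deviation of each gene (y axis) in each library (x axis) from the WT mean, as log2 CPM, blue for lower and red for higher, with colours ending at -1 and 1. Glycolysis genes (top block) are mostly blue in the A1cf KO libraries except 602, Me3 (bottom) is blue in all 6, and the citric acid cycle block is pale or red in 588, 591 and 602 and blue in 584.

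Markers of the distal nephron segments, like the glycolysis genes, mostly had negative fold changes. All 10 thick ascending limb markers, among them Umod and Slc12a1, had fold changes below 0 (median -0.41). Of these, 9 had an unadjusted p under 0.05, as did 10.4% of all genes tested, and none passed the adjusted threshold. The summed level of the thick ascending limb markers was 5023 to 7340 CPM in WT and 3815 to 4835 CPM in A1cf KO. These sums did not overlap, and the highest was in WT 777. Umod, the largest part of the sum, did not overlap by itself (2720 to 3656 CPM in WT against 1876 to 2459 CPM in A1cf KO). Cldn16 did not overlap either, while the other markers of this list, such as Slc12a1, overlapped. Of all genes tested, 0.84% did not overlap. The median deviation of the glycolysis genes was -0.080 in WT 777 and 0.049 in WT 590, which had the lowest WT sum. In A1cf KO it was -0.11 in 591, with the highest sum, and -0.14 in 584, with the lowest. All 6 distal convoluted tubule markers (median -0.24), all 6 intercalated cell markers (-0.21) and all 6 tested of 7 principal cell markers (-0.22) were also negative. In these lists 3, 2 and 1 markers, in the same order, had an unadjusted p under 0.05. Of the 12 proximal tubule markers 3 were negative and 9 positive (median 0.16), with sums of 39870 to 56260 CPM in WT and 42740 to 60480 CPM in A1cf KO. Fat marker sums were highest in WT 777 (288 CPM) and A1cf KO 602 (422 CPM), the 2 libraries with the highest Hk2. Median fold changes of the other lists were 0.011 for podocytes, 0.049 for endothelium, 0.21 for macrophages, -0.22 for red blood cells and 0.63 for fat on the log2 scale. Among these lists only 1 marker, of macrophages, had an unadjusted p under 0.05. Skeletal muscle marker sums stayed at or below 2.08 CPM, and 1 of those 4 markers was at 0 in every library, as no marker of the other lists was. In RNA of whole organs, fewer cells of a segment and less RNA per cell cannot be told apart, and the part of these segments in the values of the 40 genes was not tested. With mitochondrially encoded genes left out before scaling, the median log2 fold change of the 40 was again -0.06. TMM factors rest on many genes, so leaving out these few could hardly change that median. Whether the mitochondrial share bears on the values of the 40 genes was not tested.

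**Figure D5:**
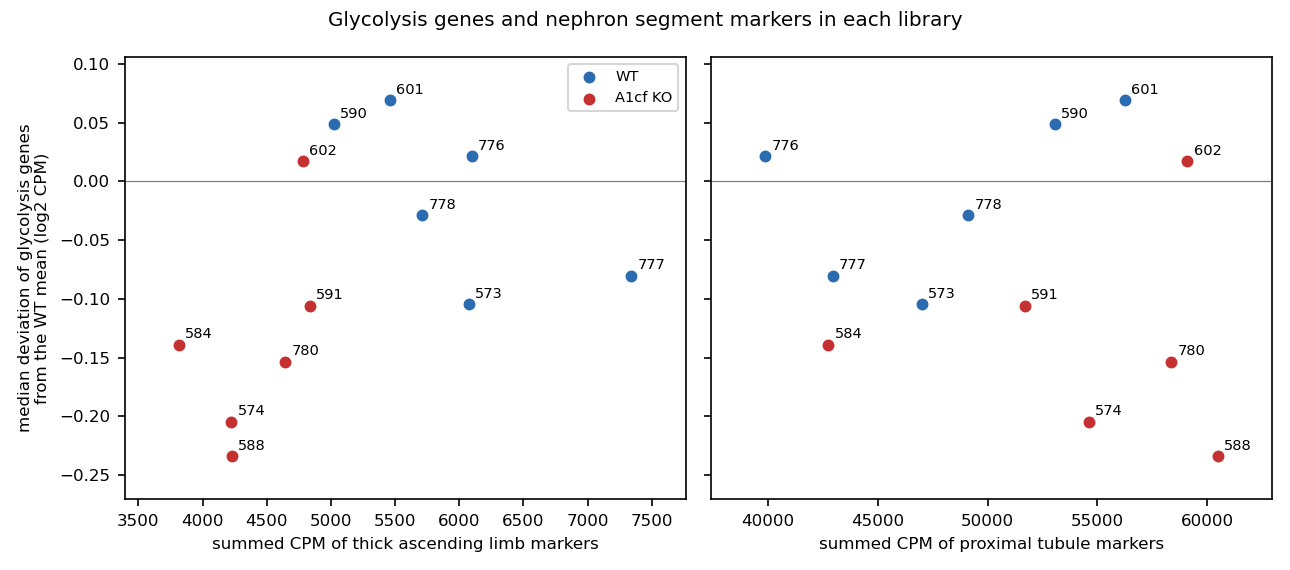
Median deviation of the 19 glycolysis genes from the WT mean (y axis, log2 CPM) in each library against the summed CPM of thick ascending limb markers (left) and proximal tubule markers (right), WT in blue and A1cf KO in red, labelled by animal. The genotypes do not overlap on the left x axis (3815 to 4835 against 5023 to 7340 CPM) and overlap on the right. Umod is the largest part of the sums on the left, and Kap makes up most of those on the right.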

How the data were processed

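The authors deposited read counts, 1 table with all 12 libraries and 1 value per gene name. Counting used featureCounts 1.5.0-p2 on GENCODE M8 exons, per the file headers, and no strand, pair or duplicate option was set. Between 58.4% and 62.4% of the nonzero counts per library were even. Whether both mates of a fragment were counted is not given in the sources used here. If they were, the counts overstate independent fragments and the chi-square values below are too high, while the edgeR test takes its spread from the libraries. The build was mm10 and the tools named are STAR and DESeq2 per the submitters' processing notes, with versions not given in the sources used here. Per the labels, kidneys were flash frozen and libraries were made from total RNA with an Illumina TruSeq kit, and the series calls the animals biological replicates.

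The table was analysed in R 4.3.3 with edgeR 4.0.16: filterByExpr by genotype, TMM scaling and the quasi-likelihood F test for genotype over 16910 genes, with Benjamini-Hochberg adjustment over all of them and a threshold of 0.05. Unadjusted p-values in the text come from the same fit. A negative fold change means a lower level in A1cf KO, and the prior count for log2 CPM was 2. Levels per kilobase divide by all annotated exon bases of a gene, so orders and shares between genes depend on that length. For library measures the test was an exact two-sided permutation test over libraries, with a smallest possible p of 0.00216. No 2 libraries agreed within sampling noise (66 pairs, smallest chi-square per degree of freedom 17.3). On simulated counts for this comparison over 16910 genes, the fit recovered 83% of 100 genes changed 1.5-fold and 98% of 100 changed 2-fold, with 5.73% false among the called. The changed genes were drawn only from genes above a minimum mean CPM, which Hk2 and Me2 do not reach. No effect of the number series was simulated.

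The 40 genes and all lists were chosen with earlier results of these data known. Full values are given for genes with a p under 0.05, the 3 highest and 3 lowest fold changes at a mean of at least 1 CPM, and isoenzymes whose levels are compared. Other pathway genes were named if past the threshold, otherwise the 3 smallest p. A gene that the rule also names is not reported here. Alternatives were DESeq2 size factors, upper-quartile scaling, mitochondrial genes left out, no filter, a stricter filter, DESeq2 1.42.0, limma-voom (limma 3.58.1), the robust fit, the number series as a covariate, animals 573 to 602 alone, and each library left out. Promoters are those of RefSeq on GRCm38.p6, cut to the 250 bases before the start.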

Additional observations from a re-analysis of the deposited data

Results flagged for a closer look

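Among 80 sets of 6 values (40 genes in each genotype), 7 held a library far from the other 5 by Dixon's test, where chance gives about 1 in 20, or 4 of 80. Of the 7, 4 were in WT 777. Hk2 measured 2.70 CPM in WT 777 and 0.427 to 0.958 CPM in the other WT libraries. Pfkfb3, which encodes a regulator of phosphofructokinase, measured 49.2 CPM in WT 777 and 23.3 to 32.1 CPM in the others. Aldoc measured 24.2 CPM in WT 777 and 11.9 to 14.6 CPM in the others. Suclg2 was low there, at 411 CPM against 459 to 481 CPM. Pklr measured 61.2 CPM in WT 776 and 38.0 to 41.4 CPM in the other WT libraries. Cs measured 277 CPM in WT 590 and 223 to 243 CPM in the others. Pgam1 measured 98.9 CPM in A1cf KO 602 and 76.6 to 83.0 CPM in the other A1cf KO libraries.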

How the results depend on the processing

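No paired analysis was possible because the animal numbers are not shared between the genotypes. The number of genes called, 8, was 170 with the DESeq2 Wald test and 24 with the series covariate, and ran from 6 to 12 with 1 library left out. The DESeq2 test called 1 of the 40 genes, and no other of the 22 alternatives called any. The median log2 fold change of the 40 ran from -0.083 (without A1cf KO 602) to -0.020 (without A1cf KO 584), and 15 to 17 of the 19 glycolysis genes were negative in every alternative. The fold change kept its sign in all 22 alternatives for 24 of the 40 genes, and 16 changed sign in at least 1; the stricter filter left out Hk2.

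With the series covariate the log2 fold changes were 0.12 for Pfkfb3, 0.0032 for Pdha1, -0.018 for Cs, -0.011 for Idh3a, -0.043 for Idh3b, -0.034 for Dlst and -0.033 for Mdh2. Within animals 573 to 602 they were 0.096 for Pfkfb3, -0.016 for Ldha, -0.015 for Dlat, -0.048 for Cs, -0.073 for Idh3a, -0.084 for Idh3b, -0.082 for Dlst, -0.017 for Fh1, -0.050 for Mdh2 and 0.015 for Me2. The log2 fold change of Idh3b was -0.0031 with upper-quartile scaling. The log2 fold change of Sucla2 was 0.0003 with DESeq2 size factors, 0.0013 without a filter, 0.0004 with the stricter filter, 0.0002 with DESeq2 and 0.0010 with limma-voom. With 1 library left out, log2 fold changes ran from -0.059 to 0.063 for Pfkfb2, -0.17 to 0.14 for Pfkfb3, -0.063 to 0.029 for Pgam1, -0.033 to 0.027 for Pdha1, -0.0051 to 0.075 for Pdk2, -0.035 to 0.049 for Cs, -0.053 to 0.049 for Idh3a, -0.032 to 0.041 for Idh3b, -0.060 to 0.0066 for Idh3g, -0.015 to 0.060 for Dlst, -0.025 to 0.039 for Sucla2, -0.0088 to 0.057 for Fh1, -0.036 to 0.091 for Mdh2 and -0.21 to 0.0036 for Me2. The cause of these changes was not tested.

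Only 1 A1cf KO animal carries a number of the higher series, so genotype and series can be told apart only in part. The p-values rest on 6 animals per genotype, and changes below 1.5-fold were not simulated.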

Other observations

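Pdk4, a pyruvate dehydrogenase kinase that is known to rise with fasting and is not among the 40 genes, varied widely between libraries. Its level ran from 76.5 CPM in WT 590 to 805 CPM in WT 776 and from 126 CPM in A1cf KO 591 to 698 CPM in A1cf KO 780. The means were 309.8 ± 261 CPM in WT against 299 ± 213 CPM in A1cf KO (mean ± SD, n = 6 each; edgeR log2 fold change -0.051, adjusted p = 0.98). Its share of the summed level of the 4 kinase genes per kilobase spanned 14.6% to 66.8% in WT, and 24.0% to 61.7% in A1cf KO. The highest value of each genotype was in the higher number series. G6pc, the glucose-releasing phosphatase of gluconeogenesis, also had a broad range, from 473 to 1052 CPM in WT against from 298 to 1027 CPM in A1cf KO (edgeR log2 fold change -0.34, adjusted p = 0.72). Pck1, which makes phosphoenolpyruvate from oxaloacetate, measured 6207 ± 796 CPM in WT against 5929 ± 719 CPM in A1cf KO (edgeR log2 fold change -0.066). Fbp1, the phosphatase that opposes phosphofructokinase, measured a mean of 914 CPM in WT against 863 CPM in A1cf KO (fitted log2 fold change -0.083). These 4 genes were chosen after their values were seen.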
